A study of Mus musculus with 10 samples.

Results

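The genes described here are Col5a3, Serinc5, Hcrtr2, Slc25a47, Cd7, Cplx2, Dusp6, Rfx5 and Rgl1, 9 of the 14450 genes listed, and they were chosen by a measured value, a lower level in Chat+ than in Chat- B cells. The study compared mature B cells from murine bone marrow in steady state, sorted into 5 Chat+ and 5 Chat- samples, each made into 1 RNA sequencing library. The sort relied on a green fluorescent reporter for Chat, the gene of choline acetyltransferase, which makes acetylcholine. Both groups come from Chat-GFP mice, and no treatment is given for either. Reporter fluorescence stands in for the protein. Because no label ties a library to an animal, a p-value here measures the spread between libraries, which may be technical. Levels are counts per 1000000 counts (CPM), and differences are Chat+ minus Chat- on the log2(CPM + offset) scale, with an offset of 0.1148 CPM.

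All 9 genes were found in the table, and none was lost to a filter. They held ranks 2, 3, 8, 9, 10, 12, 13, 14 and 15 by p among the genes lower in Chat+. Since the rule that picked them used this contrast, their differences are a description and carry no test. Just inside the end of that ranking was Rgl1 (rank 15, log2 difference -0.87), and just outside were Satb1 (rank 16, -0.36) and Maml3 (rank 17, -0.98). Other named genes of the same ranking, such as Cox6a2 (rank 4) and Rag1 (rank 7), are not among the 9.

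Depth estimated from the low values was 21530000 to 30060000 reads per library, and the defining B cell genes Ms4a1, Cd79a and Pax5 belong to a list of 12 mature B cell markers that were all measured and summed to 19300 to 21800 CPM in Chat+ and 20300 to 20400 CPM in Chat-. Chat itself was 31.1 to 111 CPM in Chat+ and 1.17 to 19.7 CPM in Chat-, so every Chat+ library was above every Chat- library. Chat- replicate 4 stood apart: 1213 genes were at the lowest value there against 62 to 682 in the other 9 libraries, and mitochondrial transcripts made up 11.9% of its CPM against 2.27% to 3.85%. Values without it stand beside the results that it moves most.

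The 9 genes belong to different pathways. Cd7 encodes an immunoglobulin superfamily receptor of T, NK and some dendritic cells, Hcrtr2 a G protein-coupled receptor for orexin known from the brain, Serinc5 a multipass membrane protein known for restricting retroviral infectivity, and Slc25a47 a mitochondrial carrier known from liver. Col5a3 encodes a chain of fibrillar collagen V. Cplx2 encodes a complexin, which binds the SNARE complex that fuses vesicles with the plasma membrane. Dusp6 encodes a phosphatase that switches off the kinase ERK and is itself induced by ERK. Rgl1 encodes an exchange factor that links Ras to the small GTPase Ral, and Rfx5 a DNA-binding subunit of the RFX complex, which with NF-Y and the coactivator CIITA drives MHC class II genes in B cells.

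Of the 9 genes, 8 had a promoter sequence in the RefSeq table (GRCm38.p6); Cd7 is named only. The 250 bases before the start are shown for Rfx5, Serinc5, Dusp6 and Rgl1, the 4 members with the highest CPM, to set the ERK-induced gene and the RFX gene beside GC-rich starts. Their RefSeq starts lie within 47 bases of those in GENCODE, and of 2 Rgl1 starts the upstream one is used. Sequences run 5′ to 3′, and capitals mark matches to the motifs named after them.
Rfx5 (chr3:94953858-94954107, plus strand): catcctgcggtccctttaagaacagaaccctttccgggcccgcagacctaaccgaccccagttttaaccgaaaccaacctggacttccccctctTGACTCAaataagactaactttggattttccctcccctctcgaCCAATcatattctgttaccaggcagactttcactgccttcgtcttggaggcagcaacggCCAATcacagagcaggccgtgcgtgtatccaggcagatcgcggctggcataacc
Serinc5 (chr13:92610888-92611137, plus strand): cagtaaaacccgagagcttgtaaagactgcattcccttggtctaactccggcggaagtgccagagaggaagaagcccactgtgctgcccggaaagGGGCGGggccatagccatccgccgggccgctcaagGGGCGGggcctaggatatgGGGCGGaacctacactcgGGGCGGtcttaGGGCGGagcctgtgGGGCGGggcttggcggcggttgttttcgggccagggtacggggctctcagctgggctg
Dusp6 (chr10:99262981-99263230, plus strand): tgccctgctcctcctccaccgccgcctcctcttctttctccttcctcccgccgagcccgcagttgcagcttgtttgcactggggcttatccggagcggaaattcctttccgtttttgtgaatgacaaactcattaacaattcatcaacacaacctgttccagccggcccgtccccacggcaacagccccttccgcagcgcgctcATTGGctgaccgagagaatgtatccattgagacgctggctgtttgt
Rgl1 (chr1:152766306-152766555, minus strand): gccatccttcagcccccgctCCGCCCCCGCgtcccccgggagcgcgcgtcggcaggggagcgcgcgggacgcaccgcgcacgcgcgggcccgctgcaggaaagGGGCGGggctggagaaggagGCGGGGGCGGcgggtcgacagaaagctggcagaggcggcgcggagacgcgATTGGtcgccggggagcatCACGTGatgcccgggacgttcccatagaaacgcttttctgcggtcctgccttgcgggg

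Matches to 9 motifs were searched on both strands. The NF-Y motif was searched as CCAAT, the GC box as GGGCGG and the E-box as CACGTG. The ETS motif was searched as CCGGAAGT, the cyclic AMP response element (CRE) as TGACGTCA and the EGR motif as GCGGGGGCG. The TATA box was searched as TATAAA, the STAT motif GAS as TTCNNNGAA, and the AP-1 motif as TGANTCA. The letters CCAAT were present in 6 of the 8 promoters, and 33.8% of 32807 promoters of the same length hold it. Rfx5 held it 2 times and also 1 AP-1 match, which 6.75% of promoters hold. Serinc5 held 6 GC boxes and Rgl1 held 3, a motif of 32.7% of promoters, and Col5a3 was the third gene with it. Rgl1 held 2 EGR matches (2.58% of promoters), which overlap GC boxes, and 1 E-box (6.02% of promoters). No promoter of the 8 held the ETS, CRE, TATA or GAS letters, in 2.88%, 1.55%, 12.4% and 7.02% of promoters. The CpG count also varied widely, from 4 in Hcrtr2 to 37 in Rgl1, where the median of all promoters was 6 (quartiles 2 and 16).

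The members differed by a wide margin in level. Per kilobase of the longest transcript, Rfx5 was highest at 24.8 CPM per kb (percentile 79.5 of the protein-coding genes listed), then Dusp6 at 13.4 and Serinc5 at 10.5. Rgl1 (2.76), Cplx2 (1.86) and Hcrtr2 (1.38 CPM per kb) were intermediate to low, and Col5a3 (0.733), Cd7 (0.425) and Slc25a47 (0.349) were lowest, at percentiles 16.8, 11.9 and 10.2. The log2 differences of these 3 genes were -2.27 to -2.65 and that of Rfx5 -0.31. That order is no finding, since a gene of low level and wide spread needs a large difference to be picked, and with an offset of 1 CPM Cd7 and Slc25a47 were at -0.75 and -0.94, below Hcrtr2 (-1.11) in size. Less than 2% of the 31-base words of each member were found in transcripts of other genes, with the highest share, 1.6%, in Cplx2.

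**Figure D1:**
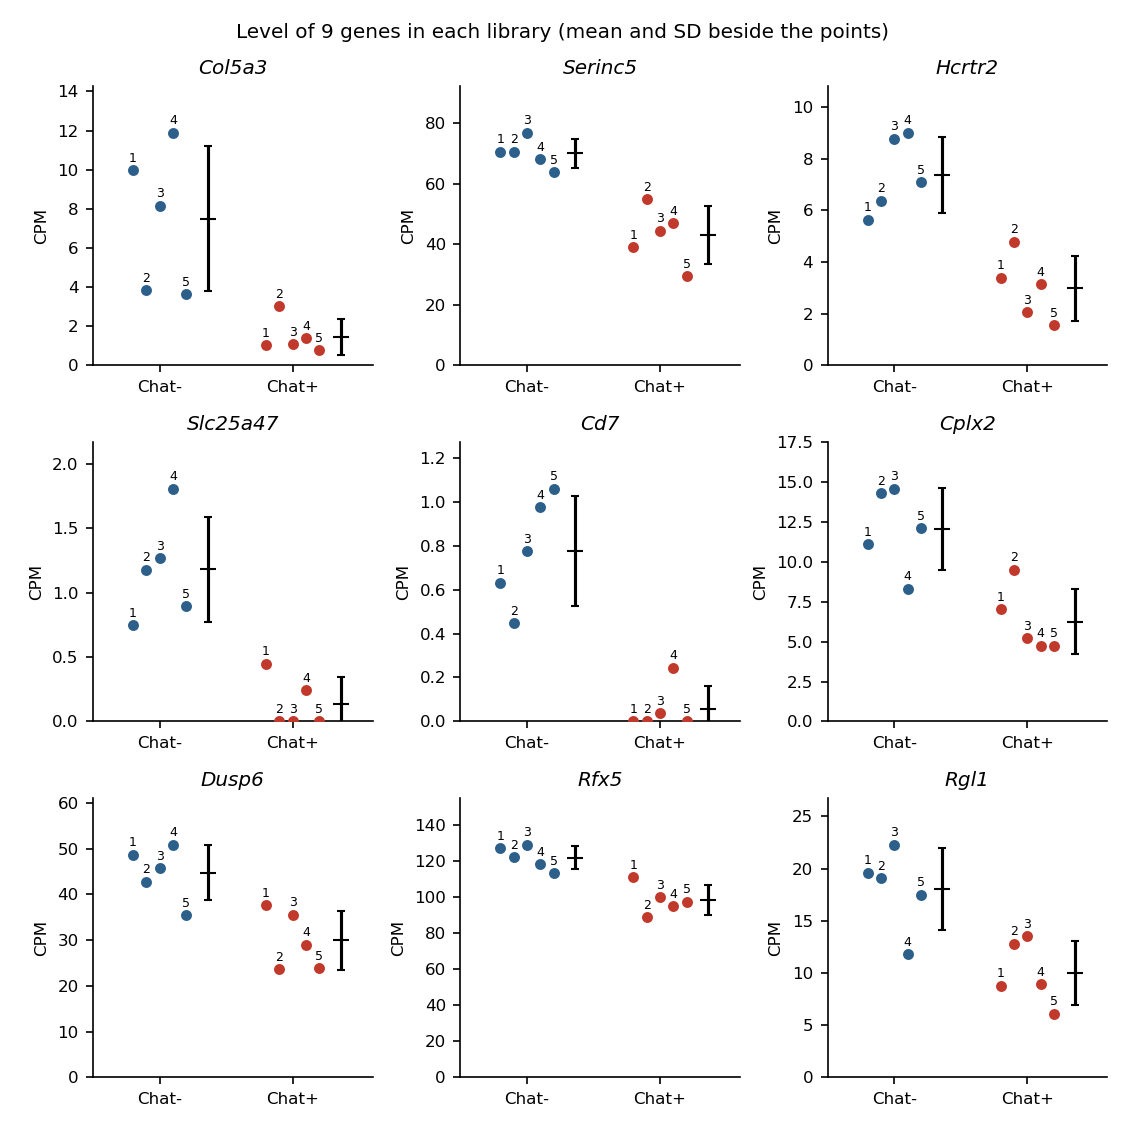
Level of each gene in CPM (vertical axis, from 0) in the 5 Chat- libraries (blue) and 5 Chat+ libraries (red), numbered by replicate, with the mean and SD beside them. The groups do not overlap for Col5a3, Serinc5, Hcrtr2, Slc25a47, Cd7 and Rfx5, and overlap for Cplx2, Dusp6 and Rgl1.

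For 6 of the 9 members every Chat+ library lay below every Chat- library, where 0.304% of all genes did, and for 8 without Chat- replicate 4 (0.941% of all genes); the rule used these values, so nothing is read from that count. Over all genes limma called 1 of 14450 genes lower (0.00692%), the predicted gene Gm48111, and 0 higher (0%) at an adjusted p under 0.05, and 0 of the 9 members passed. Chat itself, with a log2 difference of 3.64 ± 0.59 (SE), did not pass either (limma adjusted p = 0.087). A list with 0 adjusted calls is therefore not shown to be unchanged. Taking p without adjustment, 146 genes passed 0.05 as lower (1.01%) and 505 as higher (3.49%), so that 77.6% of such calls were higher. That share was 65% with TMM scaling and 66.1% with each library centred on its median. In bulk libraries fewer cells of a type and less RNA per cell cannot be told apart, and this holds for every member.

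Among the receptors, Cd7 was near the limit of detection. It was at 0, 0, 0.0364, 0.245 and 0 CPM in Chat+ replicates 1 to 5 and at 0.631, 0.446, 0.775, 0.976 and 1.06 CPM in Chat-. These levels correspond to 0 to 6 estimated reads per Chat+ library and 11 to 32 per Chat- library. Transcript was thus listed in all 5 Chat- libraries and in 2 of the 5 Chat+ libraries, and the groups did not overlap. The group sums were 7 and 102 reads, and a count of 0 allows up to 0.103 to 0.123 CPM in a library (3 counts, counting error only). The log2 difference, -2.50 ± 0.62 (SE), depends on the offset: it was -0.75 with an offset of 1 CPM and -4.28 with limma-voom on estimated reads. Cd7 (ENSMUSG00000025163) lies on chromosome 11 at 121036747 to 121039418 of GRCm38, minus strand, and overlaps Gm11775 on the other strand.

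Hcrtr2 was present at a low level in every library. It was at 3.39, 4.79, 2.07, 3.14 and 1.55 CPM in Chat+ replicates 1 to 5 and at 5.64, 6.37, 8.77, 9.01 and 7.09 CPM in Chat-. The groups did not overlap, with Chat+ replicate 2 closest to the Chat- range and Chat+ replicate 5 lowest. Mean levels were 2.99 ± 1.26 and 7.38 ± 1.48 CPM (SD, n = 5 each), a log2 difference of -1.35 ± 0.33 (SE, 95% interval -2.06 to -0.63). Hcrtr2 lies on chromosome 9 at 76225880 to 76323856, minus strand. Its paralog Hcrtr1 and the orexin gene Hcrt are not among the genes listed.

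Of 16 genes of orexin and Gq signalling, 13 were measured, and 0 passed limma's adjusted threshold, with 0 lower and 0 higher at an unadjusted p under 0.05. Their median log2 difference was 0.04 (-0.08 without Chat- replicate 4), beside 0.036 over all genes. The smallest p belonged to Plcb2, a phospholipase C downstream of Gq, at 74.8 ± 16.9 CPM (Chat+) and 92.7 ± 11.1 CPM (Chat-; mean ± SD, n = 5; log2 difference -0.34 ± 0.17, SE). Gna15, a Gq family subunit, and Plcb4, another phospholipase C, followed with log2 differences of 0.35 and -1.10.

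Serinc5 had the highest level per kilobase of the 3 plasma membrane proteins, Cd7, Hcrtr2 and Serinc5. It was at 39, 54.9, 44.4, 47 and 29.5 CPM in Chat+ replicates 1 to 5 and at 70.5, 70.5, 76.8, 68.1 and 63.8 CPM in Chat-. All 5 Chat- libraries lay within 63.8 to 76.8 CPM, and Chat+ replicate 5 was the lowest of the Chat+ libraries. The means were 42.9 ± 9.48 and 69.9 ± 4.68 CPM (SD, n = 5), a log2 difference of -0.73 ± 0.15 (SE, 95% interval -1.06 to -0.40). Serinc5 lies on chromosome 13 at 92611091 to 92711947, plus strand.

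The paralogs of Serinc5 were at other levels, and none was called lower by limma, with or without adjustment. Serinc3 was at 2210 ± 314 CPM (Chat+) and 2130 ± 371 CPM (Chat-; mean ± SD, n = 5; log2 difference 0.06, 95% interval -0.27 to 0.39), and Serinc1 at 101 ± 13 and 104 ± 16.9 CPM (log2 difference -0.03, 95% interval -0.31 to 0.24). The sign of the Serinc1 difference changed with the libraries used, to 0.06 without Chat- replicate 4. Serinc2, at 1.62 ± 1.28 and 0.492 ± 0.282 CPM, was the 1 of 3 measured paralogs with an unadjusted p under 0.05, and it was higher in Chat+ (log2 difference 1.34 ± 0.60, SE; limma adjusted p = 1), beside 3.49% of all genes. That unadjusted call was lost in 7 of the 10 fits with 1 library left out (without Chat+ replicate 2, 3 or 5 or Chat- replicate 1, 2, 3 or 5).

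Slc25a47 was the other member near the limit of detection. It was at 0.449, 0, 0, 0.245 and 0 CPM in Chat+ replicates 1 to 5 and at 0.749, 1.18, 1.27, 1.81 and 0.898 CPM in Chat-. That is 0 to 11 estimated reads per Chat+ library and 19 to 39 per Chat- library, 17 and 150 in all. The transcript was listed in 2 of 5 Chat+ libraries, replicates 1 and 4, and in every Chat- library. The log2 difference was -2.65 ± 0.65 (SE), -0.94 with an offset of 1 CPM and -4.24 with limma-voom. The gene lies on chromosome 12 at 108836046 to 108856815, plus strand, with the start in GENCODE 15083 bases from that in RefSeq.

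The other mitochondrial carriers lay on both sides of 0. Of 40 listed genes other than Slc25a47, 39 were measured, 0 passed limma's adjusted threshold, and 0 were lower and 0 higher at an unadjusted p under 0.05. Their log2 differences ran from -0.63 to 0.79 with a median of -0.01. The smallest p belonged to Slc25a5, an ADP/ATP carrier, at 234 ± 41.8 CPM (Chat+) and 194 ± 32.7 CPM (Chat-; mean ± SD, n = 5), then to Slc25a25, a calcium-regulated ATP-Mg/phosphate carrier (log2 difference -0.26), and the peroxisomal carrier Slc25a17 (0.33). The carrier gene next to it on the chromosome, Slc25a29, had a log2 difference of -0.63 (95% interval -1.69 to 0.44).

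Col5a3 had the widest spread of the members detected in every library. It was at 1.02, 3.03, 1.09, 1.39 and 0.775 CPM in Chat+ replicates 1 to 5 and at 9.98, 3.85, 8.17, 11.9 and 3.63 CPM in Chat-. The Chat- libraries comprised a low pair, replicates 2 and 5, just above Chat+ replicate 2, and 3 libraries at 8.17 CPM and above. The means were 1.46 ± 0.904 and 7.51 ± 3.69 CPM (SD, n = 5), a log2 difference of -2.27 ± 0.46 (SE, 95% interval -3.26 to -1.27). Without Chat- replicate 4, the library with the highest level, the difference was -2.06 ± 0.45. Col5a3 lies on chromosome 9 at 20770050 to 20815067, minus strand, and overlaps Gm26274 on the other strand.

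The other collagen V chains were measured in every library. Chat+ and Chat- means were 3.64 ± 1.74 and 3.92 ± 5.5 CPM for Col5a1 and 5.71 ± 3.33 and 5.02 ± 7.05 CPM for Col5a2 (SD, n = 5). In Chat- replicate 4 they stood at 13.8 and 17.6 CPM, against at most 1.86 and 2.43 CPM in the other Chat- libraries. Without that library Col5a1 and Col5a2 were higher in Chat+ by 1.12 ± 0.42 and 1.37 ± 0.43 on the log2 scale (SE; limma adjusted p = 0.55 and 0.41), in the direction opposite to Col5a3.

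Of 26 genes of fibrillar collagens and collagen processing, 21 were measured, and 0 passed limma's adjusted threshold. At an unadjusted p under 0.05, 0 were lower and 0 were higher, and the median log2 difference was 0.25. Without Chat- replicate 4, 8 were higher and 0 lower (Col1a1, Col1a2, Col3a1, Col5a1, Col5a2, Lox, Plod2 and Serpinh1), again with 0 past the adjusted threshold, and markers of stromal and endothelial cells had a median log2 difference of 1.01, with 3 of 9 higher. Over all genes in the fit without Chat- replicate 4, 5.36% were higher and 1.97% lower at an unadjusted p under 0.05. With all libraries the median of the 9 stromal and endothelial markers was 0.69, with 2 below 0. At an unadjusted p under 0.05, 1 of them was lower (11.1%, beside 1.01% of all genes) and 0 were higher. Their sum was 267 to 305 CPM in Chat+, against 263 to 301 CPM for Chat-. The part of those markers in the collagen values was not tested. Named by the smallest p with all libraries were Col27a1, a fibrillar collagen, at 7.24 ± 4.12 and 11.5 ± 2.41 CPM (log2 difference -0.88 ± 0.42, SE), the collagen chaperone gene Serpinh1 (0.85 ± 0.50) and the prolyl hydroxylase gene P4ha1 (0.25 ± 0.18).

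Cplx2 was at 7.04, 9.51, 5.22, 4.74 and 4.76 CPM in Chat+ replicates 1 to 5 and at 11.1, 14.3, 14.6, 8.33 and 12.1 CPM in Chat-. The groups overlapped through 1 library on each side, Chat+ replicate 2 and Chat- replicate 4. The means were 6.26 ± 2.05 and 12.1 ± 2.58 CPM (SD, n = 5), a log2 difference of -0.96 ± 0.26 (SE, 95% interval -1.52 to -0.40) and of -1.09 ± 0.24 without Chat- replicate 4. Cplx2 was the 1 complexin listed, since Cplx1, Cplx3 and Cplx4 are not among the genes listed. The gene lies on chromosome 13 at 54371349 to 54383917, plus strand, with its start 68793 bases from that in RefSeq.

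Among the SNARE genes that complexins act on, 26 of 33 were measured and 0 passed limma's adjusted threshold, with 1 lower (3.85%) and 0 higher at an unadjusted p under 0.05 and a median log2 difference of 0.04. The 1 lower gene was Stx11, a syntaxin used by cytotoxic lymphocytes to release granules. It was at 10.5, 8.73, 5.64, 11.6 and 4.83 CPM in Chat+ replicates 1 to 5 and at 12.6, 11.8, 15.1, 17 and 12.5 CPM in Chat-, without overlap (log2 difference -0.80 ± 0.26, SE; limma adjusted p = 0.80). The syntaxin gene Stx3 had a log2 difference of 1.01 ± 0.59.

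**Figure D2:**
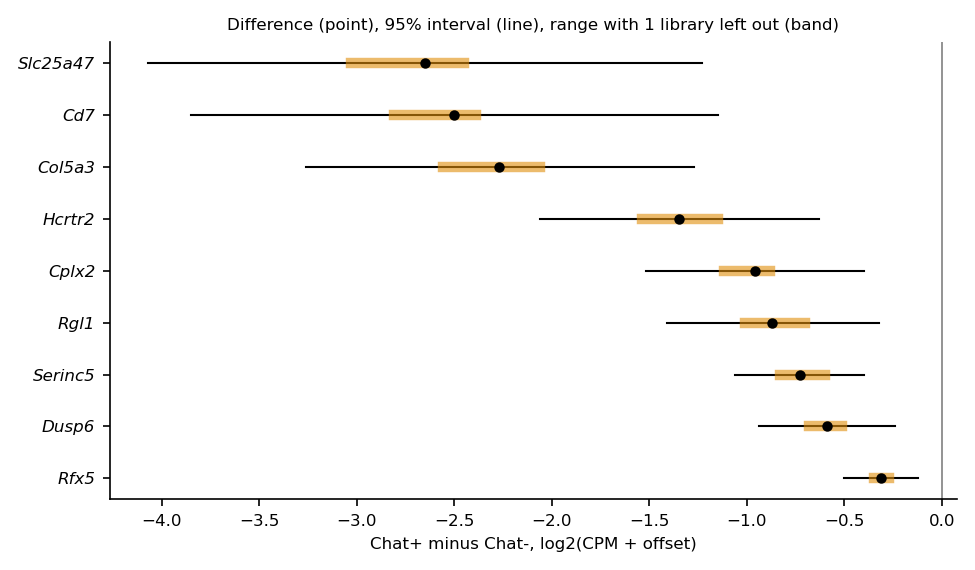
Chat+ minus Chat- difference of each gene on the log2(CPM + offset) scale (horizontal axis), with its 95% interval from limma (line) and its range when 1 library is left out (band). With 1 library left out, the differences stay between -3.03 and -0.27; since these genes were picked for a lower level, the intervals are a description.

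Dusp6 was at 37.7, 23.7, 35.6, 29 and 23.9 CPM in Chat+ replicates 1 to 5 and at 48.7, 42.8, 45.7, 50.9 and 35.5 CPM in Chat-. The groups overlapped through Chat- replicate 5, which lay just below Chat+ replicates 1 and 3. The means were 30 ± 6.48 and 44.7 ± 5.97 CPM (SD, n = 5), so that the Chat+ mean was 67% of the Chat- mean, a log2 difference of -0.59 ± 0.16 (SE, 95% interval -0.94 to -0.24). Dusp6 lies on chromosome 10 at 99263231 to 99267489, plus strand.

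Other ERK-induced genes went in both directions. Of 29 feedback and target genes, 24 were measured and 0 passed limma's adjusted threshold; at an unadjusted p under 0.05, 2 were lower (8.33%) and 3 higher (12.5%), beside 1.01% and 3.49% of all genes, and the median log2 difference was -0.13. Without Chat- replicate 4 the median was 0.06, and Dusp2 joined the lower genes. The 2 lower genes were the immediate early transcription factors Egr1 and Egr3. Egr1 was at 27.7, 14.3, 23.8, 17.3 and 24.5 CPM in Chat+ replicates 1 to 5 and at 30.3, 31, 28.8, 32.5 and 29 CPM in Chat-, without overlap (log2 difference -0.53 ± 0.18, SE; limma adjusted p = 0.82). Egr3 was at 43.2 ± 10 CPM (Chat+) and 61.1 ± 8.52 CPM (Chat-; mean ± SD, n = 5; log2 difference -0.52 ± 0.16, SE; limma adjusted p = 0.73), and its groups overlapped.

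The 3 higher genes were Fosl2 and Fos, subunits of AP-1, and the growth regulator Myc. Fosl2 was at 2.83 ± 0.709 CPM (Chat+) and 1.09 ± 0.507 CPM (Chat-; mean ± SD, n = 5; log2 difference 1.38 ± 0.43, SE; limma adjusted p = 0.72), without overlap. Myc was at 62 ± 19.4 and 40.8 ± 8.89 CPM (limma adjusted p = 0.87), and its log2 difference of 0.58 was 0.42 without Chat+ replicate 5. Fos was at 7.83 ± 2.91 and 4.71 ± 2 CPM (limma adjusted p = 1). With 1 library left out the unadjusted call of Fos was lost in 8 of 10 fits, all but those without Chat- replicate 2 or 4. Of the other MAP kinase phosphatases, 7 were measured and 5 were below 0. Dusp2 was at 120 ± 31 and 152 ± 27.5 CPM (log2 difference -0.37, 95% interval -0.79 to 0.06), and Dusp4, Dusp5, Dusp7 and Dusp1 had log2 differences of -0.32, -0.24, -0.11 and -0.03. Dusp10 and Dusp16 were above 0, at 0.20 and 0.10.

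The kinases of the cascade that Dusp6 acts on had small differences. All 23 listed genes of the ERK cascade were measured, 0 passed limma's adjusted threshold, and log2 differences ran from -0.19 to 0.35 with a median of -0.03. At an unadjusted p under 0.05, 0 were lower and 1 was higher (4.35%). This was Rps6ka1, a kinase activated by ERK, at 88.4 ± 4.19 CPM (Chat+) and 69.8 ± 9.78 CPM (Chat-; mean ± SD, n = 5; log2 difference 0.35 ± 0.11, SE; limma adjusted p = 0.70). Nf1, a Ras GTPase activator, and Braf, a kinase of the cascade, followed with log2 differences of -0.16 and -0.19.

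Rgl1 was at 8.78, 12.8, 13.5, 8.92 and 6.12 CPM in Chat+ replicates 1 to 5 and at 19.6, 19.1, 22.3, 11.8 and 17.5 CPM in Chat-. The groups overlapped only through Chat- replicate 4, which lay below Chat+ replicates 2 and 3. The means were 10 ± 3.08 and 18.1 ± 3.91 CPM (SD, n = 5), a log2 difference of -0.87 ± 0.25 (SE, 95% interval -1.41 to -0.32) and of -1.01 ± 0.23 without Chat- replicate 4. The gene lies on chromosome 1 at 152516760 to 152766351, minus strand, and contains or overlaps Gm15479, Gm7278 and Gm28792 on its own strand and Apobec4 on the other.

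Around Rgl1, 22 of 23 genes of the Ral pathway were measured and 0 passed limma's adjusted threshold, with 0 lower and 0 higher at an unadjusted p under 0.05. Their log2 differences lay between -0.22 and 0.22. The paralog Rgl2 was at 120 ± 46.2 CPM (Chat+) and 134 ± 44.8 CPM (Chat-; mean ± SD, n = 5; 95% interval of the log2 difference -0.86 to 0.48). Named by the smallest p were Exoc3, a subunit of the exocyst that Ral binds (log2 difference 0.22 ± 0.19, SE), the exchange factor gene Ralgps2 (-0.10 ± 0.08) and the GTPase gene Rap1b (-0.11 ± 0.09).

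Rfx5 had the highest level and the smallest spread of the members. It was at 111, 88.6, 100, 95 and 97.3 CPM in Chat+ replicates 1 to 5 and at 127, 122, 129, 118 and 113 CPM in Chat-. The groups did not overlap, but Chat+ replicate 1, at 111.4 CPM, came close to Chat- replicate 5, at 113.4 CPM. The means were 98.5 ± 8.37 and 122 ± 6.46 CPM (SD, n = 5), so that Chat+ stood at 80.8% of Chat-, a log2 difference of -0.31 ± 0.09 (SE, 95% interval -0.50 to -0.12). The gene lies on chromosome 3 at 94954075 to 94961561, plus strand, and overlaps B230398E01Rik on the other strand.

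The partners and targets of Rfx5 had small differences, more of them below 0 than above. Of 14 genes of the RFX complex and family, 11 were measured and 0 passed limma's adjusted threshold. At an unadjusted p under 0.05, 0 were lower and 0 higher. The log2 differences ran from -0.13 to 0.07, with 8 of the 11 below 0, where 43% of all genes were. Their median was -0.07, and -0.12 without Chat- replicate 4, beside 0.036 and -0.002 over all genes. Ciita was at 421 ± 37.7 CPM (Chat+) and 448 ± 85.7 CPM (Chat-; mean ± SD, n = 5; 95% interval of the log2 difference -0.36 to 0.22). The smallest p belonged to the NF-Y genes Nfyc and Nfyb and the RFX subunit Rfxank, each with a log2 difference of -0.13.

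Of 14 genes of MHC class II and antigen presentation, 13 were measured, with 0 past limma's adjusted threshold and 0 lower and 0 higher at an unadjusted p under 0.05. Below 0 were 11 of the 13, by at most 0.16 on the log2 scale, where 43% of all genes were below 0. The median was -0.04, and -0.10 without Chat- replicate 4. The class II chain gene H2-Aa was at 3844 ± 459 CPM (Chat+) and 3869 ± 216 CPM (Chat-; mean ± SD, n = 5; 95% interval of the log2 difference -0.32 to 0.29), and the invariant chain gene Cd74 at 11290 ± 505 and 10940 ± 875 CPM (-0.34 to 0.44). The signs of H2-Aa, Cd74 and Ciita changed when single libraries were left out. H2-Oa and H2-Ob, which form the modulator H2-O of peptide loading, and the class II chain gene H2-Eb2 had the smallest p, with log2 differences of -0.13, -0.16 and -0.12.

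**Figure D3:**
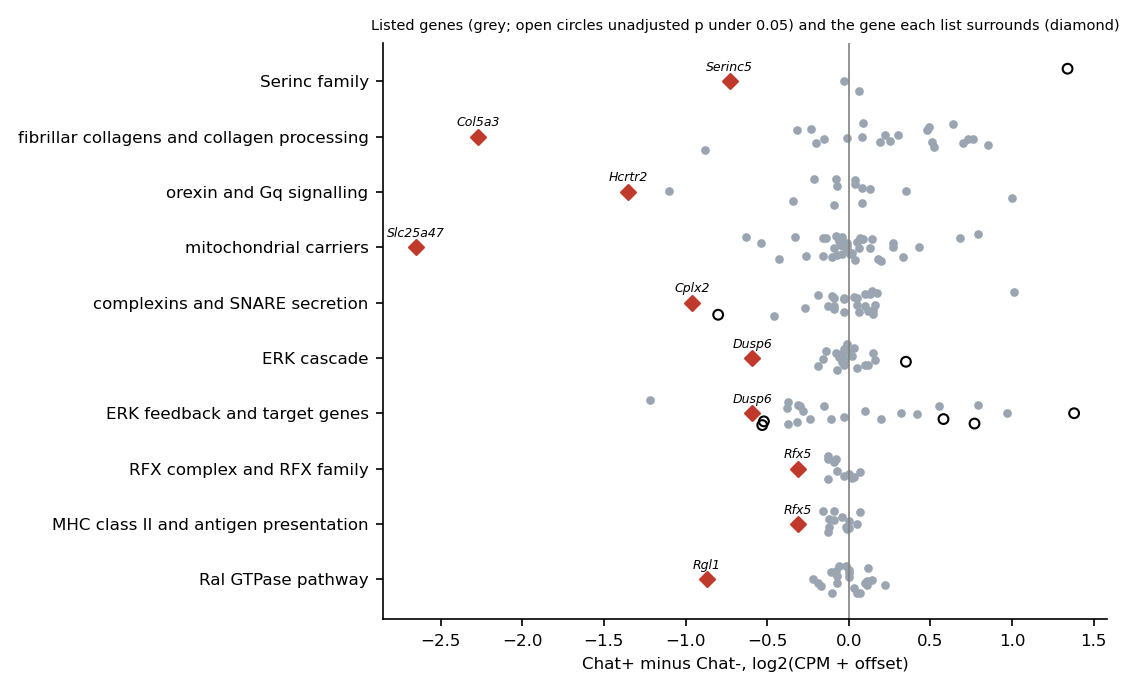
Chat+ minus Chat- log2 difference (horizontal axis) of each measured gene in the 10 lists, with the member each list surrounds as a red diamond and genes with an unadjusted p under 0.05 as open circles. Of 195 measured genes 3 were lower and 5 higher at that level, and Egr1 and Egr3 lie next to Dusp6.

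Over the 10 lists together, 195 of 222 genes were measured, and 0 passed limma's adjusted threshold in either direction. At an unadjusted p under 0.05, 3 were lower (1.54%, against 1.01% of all genes) and 5 higher (2.56%, against 3.49%). The share of lower genes is near the background. Without Chat- replicate 4 the higher genes numbered 15 (7.69%, against 5.36% of all genes in the same fit), 8 of them the collagen genes named above, and the lower genes 5 (2.56%, against 1.97%).

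None of the nearest genes on the chromosome was called lower. Over the 36 nearest measured protein-coding genes, 2 on each side of each member, 0 were lower and 1 was higher at an unadjusted p under 0.05, 0 passed limma's adjusted threshold, and the median log2 difference was 0.04. The 1 higher gene was Lysmd2, 588 kb from Hcrtr2 (log2 difference 1.49, limma adjusted p = 0.36). Wars, 3 kb from Slc25a47, had a log2 difference of 0.03, and Arpc5, which adjoins Rgl1, one of -0.08.

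Within groups, some members varied together and others did not. Over deviations from the group mean in the 10 libraries, 24 of the 36 pairs of members were positively correlated, with a median Pearson's r of 0.115 (0.125 without Chat- replicate 4). The highest were Rfx5 with Dusp6 (r = 0.76) and Serinc5 with Rgl1 (0.74) and with Hcrtr2 (0.73), and the lowest was Cplx2 with Cd7 (-0.52). These points share library depth and composition. Chat+ replicate 5 was the lowest Chat+ library for 4 members (Col5a3, Serinc5, Hcrtr2 and Rgl1) and Chat+ replicate 2 the highest for 4 (Col5a3, Serinc5, Hcrtr2 and Cplx2). Chat- replicate 5 was the lowest Chat- library for 4 (Col5a3, Serinc5, Dusp6 and Rfx5) and Chat- replicate 3 the highest for 4 (Serinc5, Cplx2, Rfx5 and Rgl1), while Chat- replicate 4 was highest in its group for Col5a3, Hcrtr2, Slc25a47 and Dusp6 and lowest for Cplx2 and Rgl1.

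**Figure D4:**
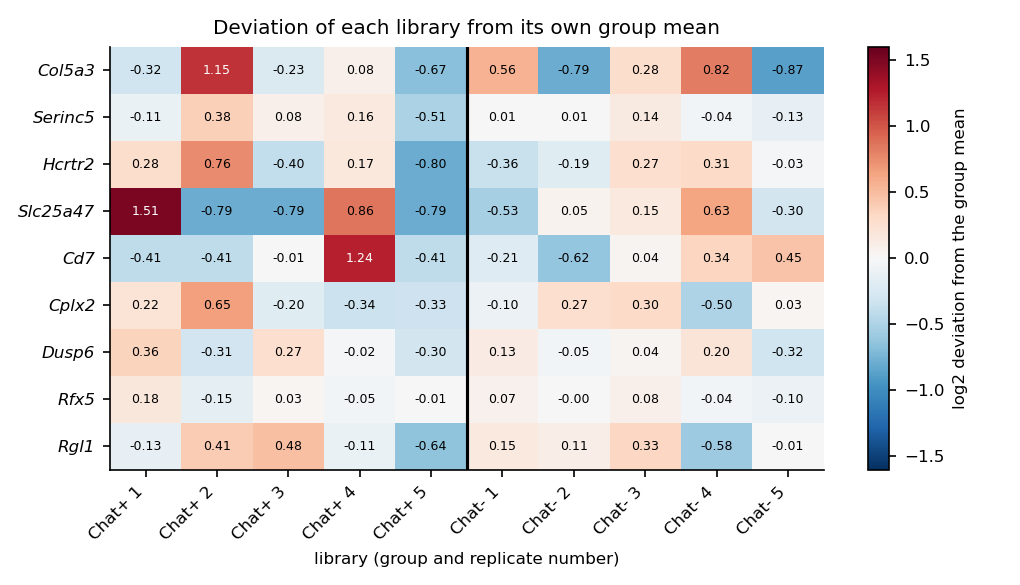
Log2 deviation of each library (columns) from its own group mean for the 9 genes (rows), red above and blue below. Chat+ replicate 2 is red for Col5a3 (1.15) and Hcrtr2 (0.76) and Chat+ replicate 5 blue for Col5a3 (-0.67) and Hcrtr2 (-0.80), and Rfx5 stays within -0.15 to 0.18.

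The genes most like each member were taken by Pearson's r of the same deviations over 10 libraries, as a description of genes that share depth and library composition. For each member the 3 with the highest r of 11036 genes compared were kept, so a high r follows in part from that selection. Shared regulation was not tested. Of the 27 genes named so, 4 were still among the 3 most alike without Chat- replicate 4 (Zfp516, Akna, Cryl1 and Aprt) and 23 were not. For Serinc5 these were Eps15l1, Tmem62 and Unk (r = 0.96, 0.95 and 0.93), for Hcrtr2 Zfp516, Oplah and Ehd2 (0.96, 0.93 and 0.90), and for Rgl1 Nol7, Slc45a4 and Ccndbp1 (0.96, 0.95 and 0.95). For Cplx2 they were Cd244a, Sfxn3 and Cltb (0.96, 0.95 and 0.93), for Dusp6 Zfp91, Vmn1r55 and Ddhd1 (0.95, 0.94 and 0.94), and for Rfx5 Cryl1, Cfap74 and Aprt (0.91, 0.90 and 0.90). Col5a3 was nearest to Pole4, Ahi1 and Atg4c (0.92, 0.91 and 0.91), Slc25a47 to Fbxl20, Qrfp and Cd34 (0.90, 0.89 and 0.87) and Cd7 to Akna, Utrn and Ank (0.85, 0.85 and 0.81). Of these 27 genes Oplah, Qrfp and Cd34 had the most negative log2 differences, -1.25 for Oplah and -1.09 for Qrfp, and the other 24 lay between -0.27 and 0.52.

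Markers of other cells and stages differed in direction from list to list. All marker lists were chosen with earlier results of these data known. The shares called in them are therefore a description and carry no test. Of 13 markers of immature and precursor B cells, 10 were measured and all 10 were below 0, with a median log2 difference of -0.37; 0 passed limma's adjusted threshold, and 3 were lower (30%, beside 1.01% of all genes) at an unadjusted p under 0.05. With 1 library left out, Rag1 was called in 10 of 10 fits, Sox4 in 6 and Bach2 in 5, and without Chat- replicate 3 Rag1 was the 1 gene called. Their summed level was 351 to 449 CPM in Chat+ and 437 to 572 CPM in Chat-. Rag1, a recombinase of developing lymphocytes, was at 1.31, 0.585, 1.93, 1.18 and 0.233 CPM in Chat+ replicates 1 to 5 and at 5.96, 1.99, 4.54, 7.06 and 4.16 CPM in Chat-. The transcription factor genes Sox4 and Bach2 had log2 differences of -0.64 and -0.28. The precursor genes Rag2, Igll1 and Erg are not among the genes listed, and Dntt was at 0.397 ± 0.472 and 0.429 ± 0.301 CPM (SD, n = 5).

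Of 14 markers of plasmacytoid dendritic cells, which also carry Cd7, 12 were measured, with 0 past limma's adjusted threshold and 2 lower (16.7%, beside 1.01% of all genes) at an unadjusted p under 0.05. The median log2 difference was -0.14, with 8 of the 12 below 0, and -0.40 without Chat- replicate 4. The 2 lower genes, Cox6a2 and Siglech, held ranks 4 and 30 by p among the genes lower in Chat+. Since the list was chosen with earlier results known, that share carries no test. Their summed level was 2270 to 2610 CPM in Chat+ and 2330 to 2680 CPM in Chat-, a sum that includes genes used by B cells, such as Spib and Irf8. The lectin gene Siglech was at 2.12, 0.551, 0.728, 1.96 and 1.52 CPM in Chat+ replicates 1 to 5 and at 4.37, 4.76, 4, 1.25 and 7.26 CPM in Chat-. Cox6a2, a cytochrome oxidase subunit gene of these cells and of muscle, was listed at 0 in 4 Chat+ libraries and was at 0.458 to 1.53 CPM in every Chat- library. Ccr9 was at 1 ± 0.651 and 1.41 ± 0.983 CPM (SD, n = 5). Without Chat- replicate 4, where Siglech was lowest and Cox6a2 highest, 4 of the 12 were lower and 1 was higher. Of all genes in that fit, 1.97% were lower and 5.36% higher.

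Of 20 markers of T and NK cells, 5 were measured, and the T cell genes Cd3d, Cd3e, Cd3g, Trac, Trbc1 and Trbc2 are not among the genes listed. The sum of the 5 was 222 to 281 CPM in Chat+ and 189 to 285 CPM in Chat-. Their median log2 difference was 0.09, with 2 of the 5 below 0. At an unadjusted p under 0.05, 1 of the 5 was lower (20%, beside 1.01% of all genes) and 0 were higher. The NK receptor gene Klrd1 was at 0.172 ± 0.174 CPM (Chat+) and 0.914 ± 0.665 CPM (Chat-; mean ± SD, n = 5; log2 difference -1.82 ± 0.73, SE; limma adjusted p = 1), and its unadjusted call was lost without Chat+ replicate 3 or 5 or Chat- replicate 1 or 4. Of 12 mature B cell markers, Fcer2a and Ighd had an unadjusted p under 0.05, both lower (16.7%, beside 1.01% of all genes). The call of Ighd was lost in 8 of 10 fits with 1 library left out. Of 9 plasma cell markers 8 were measured and 3 were higher at that level (Jchain, Mzb1 and Derl3; 37.5%, beside 3.49% of all genes), with sums of 452 to 735 CPM in Chat+ against at most 475 CPM for Chat-. That count was 0 without Chat+ replicate 2 or without Chat+ replicate 5, and 1 without Chat+ replicate 1 or without Chat- replicate 3. None of 16 markers of monocytes, macrophages and neutrophils passed it, with sums of 135 to 193 CPM against 83.3 to 300 CPM, the highest in Chat- replicate 4. Without that library 5 of the 16 were higher (Adgre1, C1qa, C1qb, C1qc and Lyz2), beside 5.36% of all genes, with 0 past the adjusted threshold. The median log2 difference of the 16 was then 0.46 in place of 0.27. None of 8 erythroid markers had an unadjusted p under 0.05 with all libraries, with sums of 556 to 910 CPM against 477 to 1120 CPM. Of 9 stromal and endothelial markers, with a median log2 difference of 0.69, 1 was lower (11.1%, beside 1.01% of all genes). This was the adhesion molecule gene Vcam1. That call was lost in 5 of 10 fits with 1 library left out. The part of these markers in the levels of Cd7 and the other members was not tested.

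**Figure D5:**
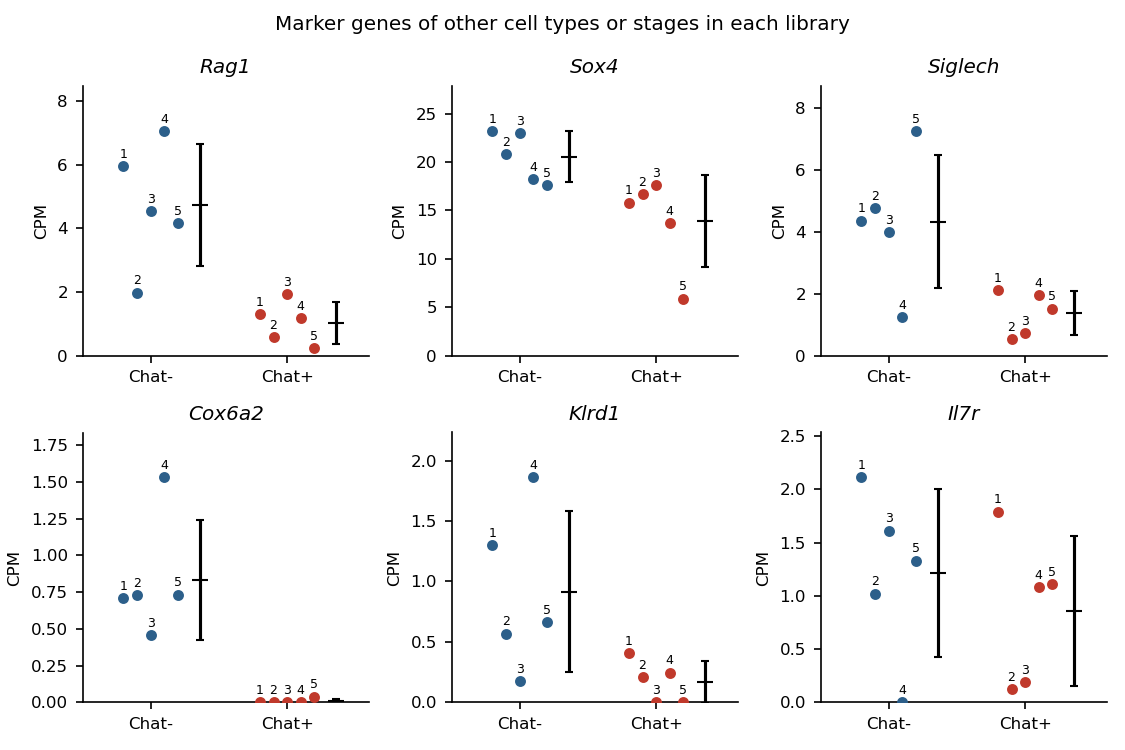
Level in CPM (vertical axis, from 0) of 6 marker genes in the Chat- (blue) and Chat+ (red) libraries, numbered by replicate, with the mean and SD beside them. Rag1 and Cox6a2 do not overlap between groups, while Sox4, Siglech, Klrd1 and Il7r do. The 6 were picked with their values known, and each has a log2 difference below 0. Lists without a panel had median log2 differences of 0.05 (plasma cell), 0.27 (monocyte, macrophage and neutrophil) and 0.69 (stromal and endothelial). Those of the erythroid and mature B cell lists were 0.07 and -0.09.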

How the data were processed

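Strand-specific libraries were made from column-purified RNA, per the labels' protocols. The tools named are cutadapt 2.6 (adapter trimming) and Salmon 0.14.2 (transcript quantification); GRCm38.p6 is the genome listed, per the submitters' processing notes. Which annotation and which program gave the values is not given in the sources used here, nor is the strand setting, so reads of an antisense partner cannot be told apart. The deposited values are log2 values: all libraries share the lowest value, -3.1228, and with that offset removed each sums to 1000000 CPM. At the estimated depth (mean 26130000 reads), 35.4% to 48.7% of each library's values below 3 CPM came out whole (tolerance 0.001). Count models, planned only for recovered reads, were therefore not run. Listed reads of a gene are these estimates.

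limma 3.58.1 (R 4.3.3; lmFit, eBayes with a mean-variance trend) was run on all 14450 genes as deposited, without covariates; p is two-sided and Benjamini-Hochberg adjusted over all genes, at 0.05. It was tested on simulated data, with changes placed only in genes of higher CPM than Col5a3, Cd7 and Slc25a47. That test does not cover genes at their level. SDs are of CPM with the offset removed. Of the gene identifiers, 14374 had a symbol. Coordinates and transcripts are those of GENCODE M21 (GRCm38). Python 3.11.15 was used.

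The 9 members, the 10 pathway lists and the 8 marker lists were chosen with earlier results of these data known. Named were the members, the genes ranked just outside, all genes of a pathway list with an unadjusted p under 0.05 or else the 3 with the smallest p, and the 3 genes most like each member among those with a mean of at least 1 CPM. Paralogs, marker genes, Ciita, Cd74, H2-Aa and the neighbouring genes were named after their values were seen. A gene that the rule would name in the secretion list is not reported here.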

Additional observations from a re-analysis of the deposited data

Results flagged for a closer look

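Among 20 groups of 5 libraries (the 9 genes and Chat, each in Chat+ and Chat-), 1 held a library far from the other 4. This was Cd7 in Chat+ replicate 4, at 0.245 CPM, where the other Chat+ libraries were at 0 to 0.0364 CPM. That level is 6 estimated reads. Chance marks about 1 in 20 groups.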

How the results depend on the processing

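The 9 differences kept their sign under all 20 alternatives in which each could be fitted. Cd7 and Slc25a47 were not fitted under the filters on low values, which remove them. The rule picked all 9 genes as lower in these same libraries, so a kept sign is a description and carries no test. Of 176 values, 172 moved by less than 1 SD; the others were Cd7 and Slc25a47, at -0.75 and -0.94 with an offset of 1 CPM and -4.28 and -4.24 with limma-voom. The count of members without overlap was 6 to 8 with a library left out, where 0.415% to 0.941% of all genes were lower without overlap. Planned count models were not run, since whole reads were not recovered. Under library quality weights 4 of the 9 members passed the adjusted threshold, where 12 of all 14450 genes passed as lower. The rule picked the members from this same contrast, so that count carries no test either. Under the other alternatives 0 members passed. The genes lower over the whole table at an adjusted p under 0.05 numbered 12 with weights, 2 without the trend, 0 with only genes above the lowest value in all libraries and 0 with limma-voom. The genes higher numbered 93 with weights, 5 with the replicate number as a block, 1 without the trend, 28 without Chat- replicate 4 and Chat+ replicate 5 (added after seeing the data) and 0 to 5 with 1 library left out. At an unadjusted p under 0.05, lower genes numbered 403 with weights, 224 with TMM, 266 without both libraries and 92 (without Chat- replicate 3) to 284 (without Chat- replicate 4) with 1 left out; higher genes numbered 907, 416, 808 and 402 to 774. Pathway genes lower at that level numbered 6 each with the replicate block, weights, TMM and centring and 3 to 5 with 1 library left out; higher ones numbered 12 with weights, 3 with TMM, 3 with centring, 13 without both libraries and 3 to 15 with 1 left out. The cause was not tested. Same-numbered libraries had correlations of -0.202 to 0.226 over all genes. Of the Chat+ libraries, 3 of 5 (replicates 1, 2 and 5) correlated best with their own number, and of the Chat- libraries only replicate 1. Libraries that share a number may come from 1 mouse, which the labels leave unstated. These correlations, which differ between the groups, do not decide it. The main fit was run without the replicate number, and a pairing is neither assumed nor excluded. Median likeness for Rfx5 was 0.96 without Chat- replicate 4.

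Cox6a2 passed with weights (limma adjusted p = 0.035) and without the trend (0.0066). Signs turned for genes near 0: Serinc1 was 0.0064 with weights and 0.0092 without both libraries, and Cd74 was -0.02 in both cases. With 1 library left out, the log2 difference ran from -0.0047 to 0.07 for Cd74, -0.17 to 0.03 for Ciita, -0.08 to 0.03 for H2-Aa, -0.36 to 0.03 for Rgl2, -0.08 to 0.06 for Serinc1 and -0.00093 to 0.16 for Serinc3; Ciita was -0.22 without both libraries. Depth limits Cd7 and Slc25a47, at 39 estimated reads or fewer per library.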
